A study of Glycine max with 26 samples.

Results

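Expression in developing soybean seeds was compared between the subjective day and the subjective night of the second cycle that was sampled in constant light. The day was represented by the arrays taken at 52, 56 and 60 h in constant light (6 arrays) and the night by those at 64, 68 and 72 h (6 arrays), so that 12 of the 26 arrays of the series entered the comparison. Every probe set with a mean log2 signal above 4 over the 26 arrays was tested, which kept 11481 of 16383. Subjective dawn fell at 48 and 72 h and subjective dusk at 60 h, so the last time of each arm lies on a boundary between day and night.

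All seeds were from the cultivar Williams 82, which carried no transgene or mutation named in the labels, and were harvested 5 weeks after flowering. Before the move to constant light, the parent plants grew in 12 h of light and 12 h of dark, which set their clocks. Day and night therefore name phases carried over from the entrainment and not a difference in light, which was on for all 26 arrays. In both sampled cycles the day arrays were taken before the night arrays. Phase and elapsed time in constant light, with the age of the seed, thus cannot be told apart in the contrast of day and night. Each of the 13 times from 24 to 72 h, spaced 4 h apart, had 2 replicates, and each replicate was a pool of 8 whole seeds from 3 plants with the seed coat left on. Whether both pools of a time came from different plants is not stated, so every p-value rests on a spread between pools that may be partly technical. Whole seeds were extracted, so fewer cells of a type and less RNA per cell cannot be told apart in any value given here.

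In plants the circadian clock is a loop of transcription factors that repress each other in turn. Morning factors such as LHY and CCA1 repress evening genes, and evening factors repress the morning genes. In green tissue many genes of light harvesting, chlorophyll synthesis and carbon fixation follow the clock when light and temperature are held constant. A developing soybean seed is green, holds photosynthetically active plastids, and at the same time fills with storage protein and oil before it dries.

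The samples carried the markers of a filling seed. Of 12 seed marker names searched, 9 were found, and the most abundant, the glycinin GY1, had a mean log2 signal of 16.2. Of 5 seed coat names 4 were found, and the names of 5 markers of nodules and roots matched no probe set of the table, so that check could not be made. The lowest signal of an array took either a low or a high level, 1.71 to 2.04 in one class and 2.60 to 2.72 in the other over these 12 arrays. Each arm held 3 arrays of each class. The replicates of a time correlated at r of 0.977 to 0.994 across probe sets, with the lowest value at 56 h, where the median SD between replicates was also highest at 0.219.

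No probe set passed the test of day against night in the second cycle. With limma and Benjamini-Hochberg adjustment, 0 of 11481 probe sets (percent called 0) had an adjusted p under 0.05, and the lowest adjusted value was 0.0679. Before adjustment 829 (7.22%) had a p under 0.05, of which 499 (4.35%) had the higher mean in the day and 330 (2.87%) in the night. The side with more probe sets depended on the scaling and on single arrays. Day means were higher for 60.2% of those 829, for 43.4% of the 938 found after quantile normalization and for 36.9% of the 842 found after each array was centred on its median. Without 1 of the 12 arrays the total lay between 600 and 1359. The split was 209 day to 391 night without the second replicate of 60 h and 309 to 381 without the second replicate of 52 h. It was 405 to 439 without the second replicate of 72 h and 1015 to 268 without the first replicate of 60 h. With the boundary times left out it was 1338 to 239. Quantile normalization gave 28 probe sets past the adjusted threshold, 27 of them higher in the night, and median centring gave 21, all higher in the night. Of these, 23 and 19 had also passed the test in the first cycle in the same direction. Of all probe sets 5.62% passed there in either direction and 3.05% with the higher mean in the night. The other fits gave between 0 and 6, and leaving out single arrays gave between 0 and 7, with 7 without the first replicate of 72 h.

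The probe sets nearest the threshold were a pair for 1 gene, LOC547605, with higher signals in the night. The annotation used here gives that gene no name. On the first, whose ID ends in x_at, the log2 signal was lowest at 11.67, with a median of 11.87 and a highest value of 11.92, on the 6 day arrays. On the 6 night arrays the lowest was 12.22, the median 12.49 and the highest 12.52. All 6 night arrays thus lay above all 6 day arrays, by a mean of 1.49-fold. The difference of day minus night was -0.57 ± 0.09 (SE), with a limma adjusted p of 0.0679. The second probe set, whose ID ends in s_at, ran from 13.22 to 13.42 in the day and from 13.63 to 13.97 in the night, a difference of -0.48 ± 0.08 with the same adjusted p. It too had no overlap between arms. Both passed when the class of lowest signal was added as a block (adjusted p = 0.0448) and when the day was set against the mean of the nights before and after it (adjusted p = 0.0199). The latter contrast, in which 6 probe sets (0.0523%) passed, cancels any linear drift over the time in constant light. Neither passed without a filter or without the boundary times, where the smallest limma adjusted p of any probe set was 0.179 and 0.13. Nor did they pass with the replicate number as a block. In 2 fits of the 12 arrays alone neither passed, with smallest limma adjusted p-values of 0.631 and 0.091. The differences were alike on arrays of the low class (-0.61 and -0.49) and of the high class (-0.53 and -0.47). In the first cycle, on other arrays, the differences were -0.69 and -0.59, with limma adjusted p-values of 5.92e-04 and 5.86e-04.

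With the class of lowest signal as a block, 4 probe sets (0.0348%) passed, all higher in the night. Beside the LOC547605 pair these were LOC100814665 and P42-1. LOC100814665 ranged from 7.48 to 8.02 in the day and from 8.15 to 8.76 in the night, again without overlap, with a difference of -0.75 ± 0.15. P42-1 had a day median of 5.70 (5.21 to 6.22) and a night median of 6.40 (6.13 to 6.78). The ranges of P42-1 overlapped at their edges, and the difference was -0.70 ± 0.22. Without the block the limma adjusted p was 0.123 for LOC100814665 and 0.384 for P42-1.

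**Figure D1:**
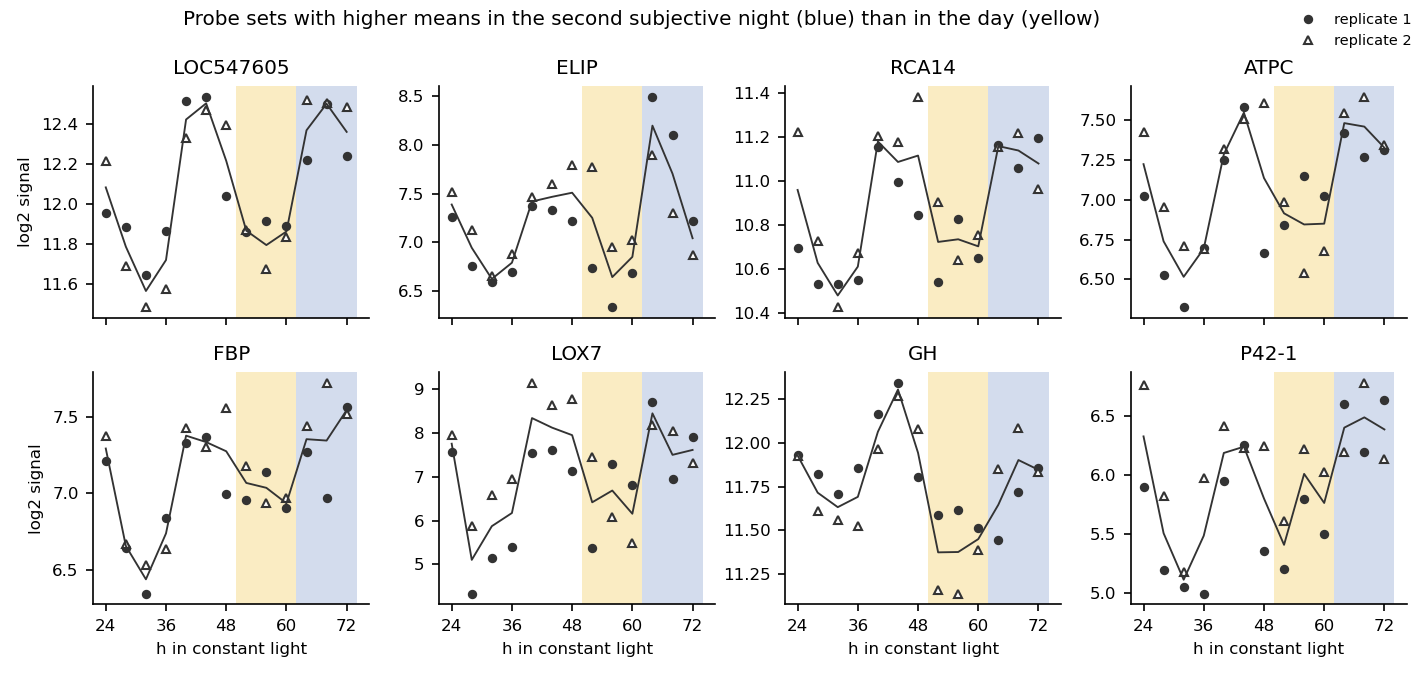
Log2 signal against hours in constant light for 8 probe sets with higher means in the second subjective night, with filled circles for replicate 1, open triangles for replicate 2 and a line through the mean of each time. Yellow marks the 52, 56 and 60 h arrays and blue the 64, 68 and 72 h arrays. In LOC547605 (the x_at probe set), RCA14 and ATPC all night arrays of the second cycle lie above all day arrays, and in the other panels the arms overlap.

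Most probe sets for thylakoid proteins and chlorophyll synthesis averaged higher in the night, although no member passed the test. In the list of carotenoid and tocopherol synthesis, 10 of 18 had the higher mean in the day, as 59% of all did. The median difference of that list was 0.08. Of 15 probe sets for thylakoid proteins and chlorophyll synthesis, 12 had the higher mean in the night, as 41% of all probe sets did. At an unadjusted p under 0.05, 8 of 15 were higher in the night and 0 in the day, against 2.87% and 4.35% of all probe sets. The median difference over the 15 was -0.28, against 0.03 over all probe sets tested, and it was -0.28 after quantile normalization and -0.32 after median centring. Against the mean of the nights before and after, it was -0.25. Leaving out any 1 of the 12 arrays gave medians between -0.35 and -0.22 and between 5 and 9 night-higher probe sets at that p. Without the boundary times the median was -0.27, and 4 of 15 were night-higher at that p, where 239 of all 11481 were. On the low-class and high-class arrays alone 3 and 5 were, where 276 and 676 of all were. For each array the median over the list of the signal minus the probe set's mean was taken as the list's level. It had a median of -0.10 over the day arrays (-0.19 to 0.05) and of 0.16 over the night arrays (0.004 to 0.30). The arms overlapped through the second replicate of 52 h on the day side and the first replicate of 64 h on the night side.

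ELIP, an early light-inducible protein of the thylakoid, had a day median of 6.84 (6.33 to 7.77) and a night median of 7.60 (6.87 to 8.49). All 6 night arrays lay above the day median, and 1 day array, the second replicate of 52 h, lay above the night median. The difference was -0.73 ± 0.19, with a limma adjusted p of 0.261. ATPC, which encodes the gamma subunit of ATP synthase in the chloroplast, had a day median of 6.92 (6.54 to 7.15) and a night median of 7.38 (7.27 to 7.65), with no overlap. Its difference was -0.55 ± 0.15 (limma adjusted p = 0.283). GSA1, which makes the precursor of chlorophyll and heme from glutamate-1-semialdehyde, ran from 7.09 to 7.39 in the day and from 7.48 to 7.76 in the night. Its arms did not overlap either, and the difference was -0.33 ± 0.09 (limma adjusted p = 0.314). Further members outside the naming rule, picked with their values in view, were the light-harvesting gene LHCP at -0.65 and -0.52 on its 2 probe sets and CHLH, a subunit of the magnesium chelatase, at -0.39. Chosen in the same way, HEMG and HEMB, enzymes of tetrapyrrole synthesis shared with heme, lay on the other side at 0.17 and 0.07. The 2 probe sets of NDHK were split, at -0.28 and 0.26.

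The Rubisco activases, chaperones that free the carbon-fixing enzyme from inhibitory sugar phosphates, and FBP, a fructose-1,6-bisphosphatase, showed the same order on every probe set. All 5 probe sets had the higher mean in the night, each with an unadjusted p under 0.05, and their differences lay between -0.48 and -0.39. This held without any 1 of the 12 arrays, with 5 of 5 at an unadjusted p under 0.05 each time and medians between -0.48 and -0.34. It held for 3 of 5 on the low-class arrays alone and for 5 of 5 on the high-class arrays alone. Without the boundary times 3 of 5 had such a p, all 5 kept the higher mean in the night, and the list median was -0.34. Against the mean of the nights before and after, the list median was -0.38. The list's level ran from -0.29 to 0.16 on the day arrays and from 0.07 to 0.42 on the night arrays. The arms overlapped through the second replicate of 52 h on the day side. On the night side they did so through the second replicate of 72 h and the first of 68 h. On its probe set of highest mean RCA14 had a day median of 10.70 (10.54 to 10.91) and a night median of 11.16 (10.97 to 11.22). No night array reached down to a day array, and the difference was -0.40 ± 0.11 (limma adjusted p = 0.263). RCAALPHA differed by -0.40 ± 0.13. FBP had a day median of 6.96 (6.90 to 7.18) and a night median of 7.48 (6.97 to 7.72), with the first replicate of 68 h as the one low night array, and a difference of -0.40 ± 0.12 (limma adjusted p = 0.334). The probe sets of RCA14 and RCAALPHA carry IDs with the same first number and may share transcripts, so they are not independent.

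LOX7, a lipoxygenase, which oxidises unsaturated fatty acids, had the largest difference toward the night of all probe sets tested. Its leading probe set had a day median of 6.45 (5.38 to 7.45) and a night median of 7.98 (6.96 to 8.70). All 6 night arrays lay above the day median and 0 day arrays above the night median, but the ranges overlapped. The difference was -1.43 ± 0.47, with a limma adjusted p of 0.465. A second probe set, with the higher mean, gave -1.42 ± 0.51. Of 11 lipoxygenase probe sets, 9 had the higher mean in the night and 2 had an unadjusted p under 0.05 toward the night, both of LOX7, against 41% and 2.87% of all probe sets. Members picked with their values in view were the abundant seed lipoxygenases LOX1.1, LOX2 and LOX3, at -0.12, -0.11 and -0.15, and VLXB, at 0.85 and 0.77 on its 2 probe sets. The list median of -0.46 was -0.08 on the low-class arrays and -0.69 on the high-class arrays. It was -0.15 with a minimum mean of 6 and -0.19 without the boundary times. Without single arrays it lay between -0.56 and -0.23, with -0.23 without the second replicate of 68 h, -0.27 and -0.29 without the first of 52 h and the second of 56 h, and -0.29 without the first of 72 h.

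Seed coat genes averaged higher in the night in part. PRP3, a proline-rich cell wall protein, differed by -0.53 ± 0.15, with a day range of 9.28 to 10.39 and a night range of 10.05 to 10.86. HPS, a hydrophobic protein deposited on the seed surface, differed by -0.37 ± 0.12 and Ep, the seed coat peroxidase, by -0.29 ± 0.11. The limma adjusted p-values were 0.317, 0.42 and 0.579. The other 4 of 7 probe sets of the list differed by between -0.10 and 0.08. The list median of -0.10 was -0.45 on the low-class and 0.12 on the high-class arrays, and -0.30 without the boundary times. It was -0.29 without the first replicate of 72 h and 0.01 without the second, so it had no settled size or direction. The summed signal of the 4 seed coat markers was 14.84 to 15.40 in the day and 15.10 to 15.65 in the night on the log2 scale, a mean difference of -0.31. The summed signal of the 9 seed markers differed by -0.11. Whether a changing share of seed coat in the pools takes part in the differences of the chloroplast genes was not tested. PRP3 has a probe set ID whose first number it shares with LOX7, and the same holds for ELIP and CPX. The annotation used here thus gives different genes to related probe sets.

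Other named genes with the smallest p-values on the night side were EN2, GH and GSTU37. EN2 ran from 4.84 to 5.88 in the day and from 5.94 to 6.55 in the night with no overlap, a difference of -0.73 ± 0.19 (limma adjusted p = 0.261). GH differed by -0.40 ± 0.11 (limma adjusted p = 0.317), and against the mean of both flanking nights by -0.55 with an adjusted p of 0.0519. GSTU37, a tau-class glutathione transferase, had a day median of 9.41 and a night median of 9.95, a difference of -0.46 ± 0.14. Its relatives GSTU30 and GSTU13 differed by -0.34 ± 0.13 and 0.43 ± 0.15, on opposite sides. The storage protein genes GY7, CG-BETA-1 and GY2 differed by -0.42 ± 0.19, -0.21 ± 0.09 and -0.19 ± 0.09, and 10 of 11 storage globulin probe sets had the higher mean in the night, against 41% of all. Their list median was -0.13, -0.06 after quantile normalization, with 8 of 11 higher in the night, and -0.16 after median centring. It was -0.03 on the low-class arrays, with 7 of 11 higher in the night, and -0.27 on the high-class arrays, with 10 of 11.

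On the day side both leading probe sets have no gene name in the annotation used here. The first had a day median of 10.23 (10.12 to 10.51) and a night median of 9.67 (9.56 to 10.06). All 6 day arrays lay above all 6 night arrays, and the difference was 0.50 ± 0.11 with a limma adjusted p of 0.124. Its first-cycle difference was 0.69 with a limma adjusted p of 0.00122. The second differed by 1.33 ± 0.30 (limma adjusted p = 0.207), from a day range of 8.38 to 9.39 to a night range of 6.17 to 9.29. Both replicates of 64 h and of 72 h were low, while the second replicate of 68 h was as high as the day arrays. In the first cycle its difference was 0.11, and the cycles differed by 1.22 ± 0.42 (limma adjusted p = 0.608).

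Some genes of flavonoid synthesis averaged higher in the day. CHS8, a chalcone synthase that makes the first flavonoid skeleton, had a day median of 9.57 (8.57 to 9.75) and a night median of 8.41 (7.90 to 9.59) on its probe set of highest mean. All 6 day arrays lay above the night median, and 1 night array, the first replicate of 68 h, reached the level of the day. The difference was 0.77 ± 0.27 (limma adjusted p = 0.467), and it was 0.43 on the low-class and 1.12 on the high-class arrays. CHI1A, a chalcone isomerase, differed by 0.32 ± 0.14 and PAL2.1, a phenylalanine ammonia-lyase that feeds the pathway, by 0.34 ± 0.15. In all, 5 of 30 probe sets of the list were higher in the day and 1 in the night at an unadjusted p under 0.05, against 4.35% and 2.87% of all probe sets. The 5 became 2 after quantile normalization and after median centring, 0 without the boundary times, and between 2 and 5 without single arrays of the second cycle. It was 2 without the first replicate of 52 h and without the second of 56, 64 or 68 h, and 3 without either replicate of 60 h or the first of 72 h. Of the 5, 3 belonged to CHS8, at 0.77, 0.90 and 0.69. All 3 have an ID suffix (s or x) that marks probes shared between transcripts. A further CHS8 probe set without such a suffix, at a mean of 4.14 close to the minimum of 4, differed by -0.07. The list median was 0.01, -0.02 after quantile normalization and -0.03 after median centring, so the list had no settled direction.

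Among regulators, 34 of 40 bZIP probe sets had the higher mean in the day, as 59% of all probe sets did, with a median difference of 0.13. The bZIP proteins are dimeric transcription factors, some of which act in seed maturation. At an unadjusted p under 0.05, 6 were higher in the day and 0 in the night, against 4.35% and 2.87% of all probe sets. The 6 became 0 on the low-class arrays, where 271 of all 11481 probe sets were higher in the day at that p. On the high-class arrays they became 9, where 1126 of all were. They became 11 without the boundary times, where 1338 of all were, against 499 in the main fit. The list median was 0.10 after quantile normalization and 0.09 after median centring. Without the second replicate of 52 h it was 0.06 and 3 probe sets had an unadjusted p under 0.05. These values were 0.20 and 13 without the first replicate of 52 h, and 0.07 and 2 without the second replicate of 60 h. They were 0.18 and 10 without the first replicate of 60 h. Over all probe sets the day-higher counts in these fits, in the same order, were 309, 709, 209 and 1015. The level of the bZIP list ran from -0.227 to 0.223 on the day arrays and from -0.226 to 0.145 on the night arrays, so the arms overlapped widely. BZIP55 had a day median of 8.85 (8.70 to 8.96) and a night median of 8.60 (8.58 to 8.70), touching at the edge, and a difference of 0.21 ± 0.08. BZIP113 differed by 0.30 ± 0.11 and BZIP59 by 0.28 ± 0.12. Limma adjusted p-values of these 3 were 0.519, 0.533 and 0.622. GmNAC109 and WRKY7, of the plant-specific NAC and WRKY factors, differed by 0.32 ± 0.12 and 0.21 ± 0.10, while MYB93 differed by -0.18 ± 0.08.

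The remaining named genes on the day side belonged to separate processes. GASA3, of a family of short cysteine-rich peptides regulated by gibberellin, had a day median of 10.20 (9.95 to 10.46) and a night median of 9.80 (9.63 to 10.09), a difference of 0.38 ± 0.10 (limma adjusted p = 0.263). ERA1B, the beta subunit of a protein farnesyltransferase, differed by 0.34 ± 0.11 (adjusted p = 0.462 in the limma fit). LBD23, of the LATERAL ORGAN BOUNDARIES domain factors, differed by 0.40 ± 0.15. HD2A, of a class of histone deacetylases found in plants, differed by 0.26 ± 0.10 and HSF-03, a heat shock factor, by 0.34 ± 0.13. HPT1, which starts tocopherol synthesis, and DXR1, of the plastid isoprenoid pathway, differed by 0.29 ± 0.12 and 0.18 ± 0.08. BCH3, a carotene hydroxylase, lay on the other side at -0.28 ± 0.13 on its leading probe set, with 0.22 and -0.07 on its others. So did the folding helpers PDIL-1 (-0.22 ± 0.09) and BIP4 (-0.27 ± 0.12), the kinase of PEP carboxylase PPCK2 (-0.23 ± 0.10), the 14-3-3 protein GF14C (-0.13 ± 0.06) and the aquaporin SIP1-6 (-0.38 ± 0.14). The aquaporin PIP2-1 differed by 0.16 ± 0.07. Apart from GASA3, these genes had limma adjusted p-values of 0.462 or more.

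The arms of the clock gene LHY could not be told apart. LHY, a morning factor of the central loop, had a day median of 4.68 (4.10 to 5.35) and a night median of 4.60 (4.08 to 4.98), close to the minimum mean signal of 4 required here. The difference was 0.09 ± 0.19 (limma adjusted p = 0.965), and the arms overlapped over most of their range. All 6 probe sets of the clock and light signalling list had an unadjusted p above 0.05. The samples of subjective dawn at 48 and 72 h count here as the ends of the nights. GOLS, a galactinol synthase that starts the raffinose sugars of the drying seed, had a day median of 5.81 (5.16 to 7.26) and a night median of 5.80 (5.38 to 7.06). Its difference was 0.09 ± 0.24, with both arrays of 60 h at 6.92 and 7.26 far above those of 52 and 56 h.

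**Figure D2:**
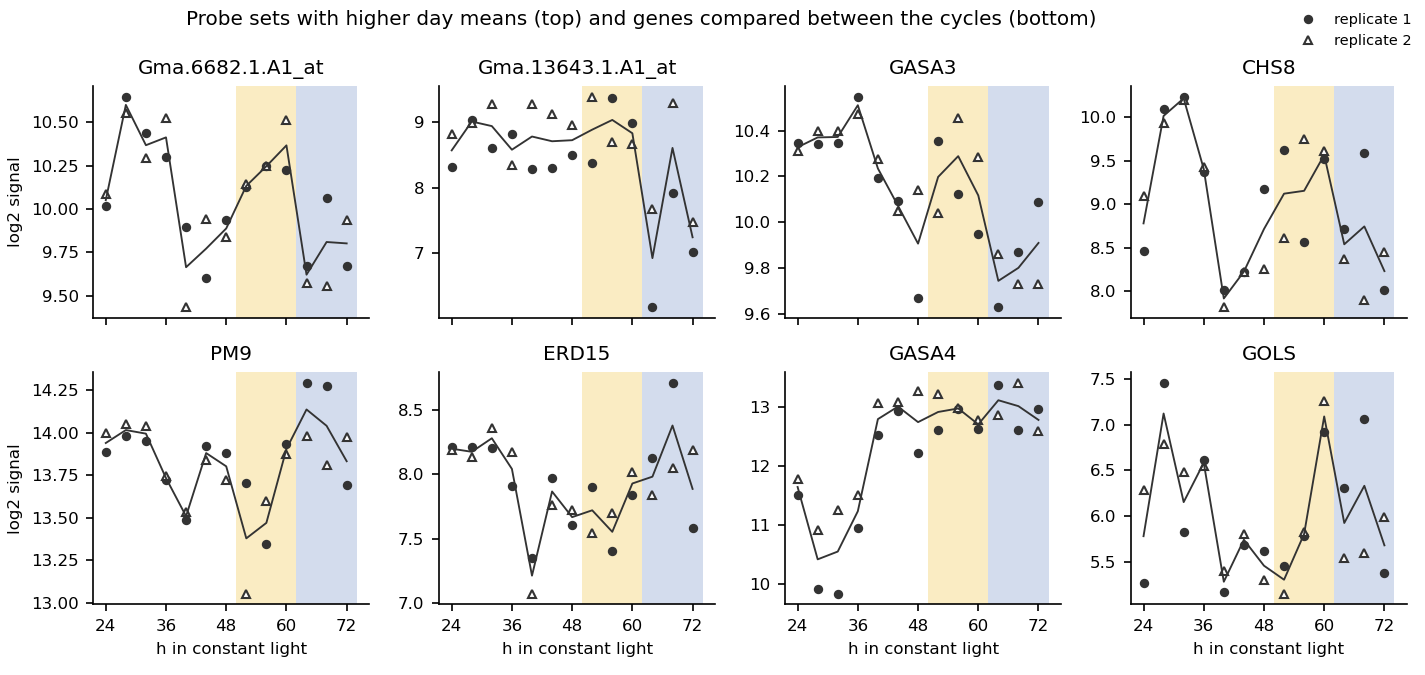
Log2 signal against hours in constant light, drawn as in the plot of night-higher probe sets, for probe sets with higher day means (top row, the first 2 without a gene name and titled by their IDs) and genes compared between the cycles (bottom row). GASA4 lay below 12 on all arrays from 24 to 36 h and above 12 from 40 h on, and both arrays of GOLS at 60 h stand above those at 52 and 56 h.

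The 6 times of the second cycle were also tested for any difference among them. The limma F test found 0 of 11481 (percent called 0), with 526 (4.58%) at an unadjusted p under 0.05 and a smallest adjusted p of 0.954. With the spread of the 12 arrays alone, 243 had an unadjusted p under 0.05. The 4 named genes with the smallest p were ELIP, PM9, GmCUPIN16.1 and BZIP110, at unadjusted limma p-values of 0.0018, 0.00464, 0.00495 and 0.00642. ELIP averaged highest at 64 h (8.19) and lowest at 56 h (6.64). Over all probe sets, 28.1% had their highest mean at 56 h and 37.7% their lowest at 64 h, and the arrays of 64 h had medians of 7.46 and 7.48, within the range of 7.40 to 7.72 of the 12 arrays.

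The arms were next compared by overlap. In 51 probe sets (0.444%) all 6 night arrays lay above all 6 day arrays, and in 22 (0.192%) all 6 day arrays lay above the night. Of the 51, 34 had 1 gene symbol and 6 had a name, among them PSAD, a subunit of photosystem I, and GAPC1, a glyceraldehyde-3-phosphate dehydrogenase, both outside the naming rule and picked with their values in view. Their highest mean fell at 64 h in 13, at 68 h in 23 and at 72 h in 15. Of these 51, 49 had the same direction in the first cycle, against 66.4% of all probe sets, and 39 passed the test there, against 3.05% called higher in the night. Of the 51, 21 (41.2%) have an ID suffix (a, s or x) that marks probes shared between transcripts, against 21.0% of all, and both probe sets of LOC547605 are among them, so the 51 are not independent. Of the 22, 7 had 1 symbol and 0 a name, 20 had the same direction in the first cycle and 6 passed the test there, against 2.57% called higher in the day.

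The first cycle, with 28, 32 and 36 h as day and 40, 44 and 48 h as night, shares no array with the second and served as comparison. There 645 probe sets (5.62%) passed the same limma test, 295 (2.57%) higher in the day and 350 (3.05%) in the night. Before adjustment 2078 (18.1%) had a p under 0.05, of which 1115 (9.71%) were higher in the day and 963 (8.39%) in the night. With the spread of the 12 first-cycle arrays alone, 802 passed after adjustment. The counts of both cycles thus depend on the shared spread. The difference between the cycles was then tested directly. No probe set passed this test: limma called 0 (percent called 0), with 657 (5.72%) at an unadjusted p under 0.05 and a smallest adjusted p of 0.131. A call in the first cycle and none in the second is thus not shown to be a difference between them.

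The 645 probe sets were chosen by their first-cycle values, so only their second-cycle values are new. Of them 555 (86.05%, 95% exact binomial interval over probe sets 83.1 to 88.6) had the same direction in the second cycle, against 66.4% of all probe sets. Probe sets are not independent, so the interval covers counting only. The direction was kept by 333 of the 350 called higher in the night (95.1%) and by 222 of the 295 called higher in the day (75.3%). The median difference of the night group was -0.63 in the first cycle and -0.24 in the second, and that of the day group was 0.46 and 0.12. An unadjusted p under 0.05 in the same direction was reached by 207 (32.1%). With the boundary times 36, 48, 60 and 72 h left out of both contrasts, the share with the same direction was 71.32%, against 52.3% of all probe sets. The same share was 75.64% without the second replicate of 68 h and 91.19% without its first.

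Read the other way, the 330 probe sets nearest to a night call in the second cycle had a median first-cycle difference of -0.38 beside -0.35 in the second, and 283 (85.8%) kept the direction. The 499 on the day side had medians of 0.16 and 0.27, and 440 (88.2%) kept it. Over all probe sets, chosen by neither cycle, the SD of the differences was 0.25 in the first cycle and 0.16 in the second. Differences beyond 0.5 occurred in 536 and 145 probe sets, and beyond 1 in 99 and 9. The median SD of a probe set between replicates, pooled over 6 times, was 0.17 in the first cycle and 0.23 in the second. In the first cycle 295 probe sets (2.57%) had all day arrays above all night arrays and 202 (1.76%) the reverse. The differences of the 2 cycles correlated at r = 0.45 across the 11481 probe sets, which share arrays and scaling, and at 0.06 with the boundary times left out.

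**Figure D3:**
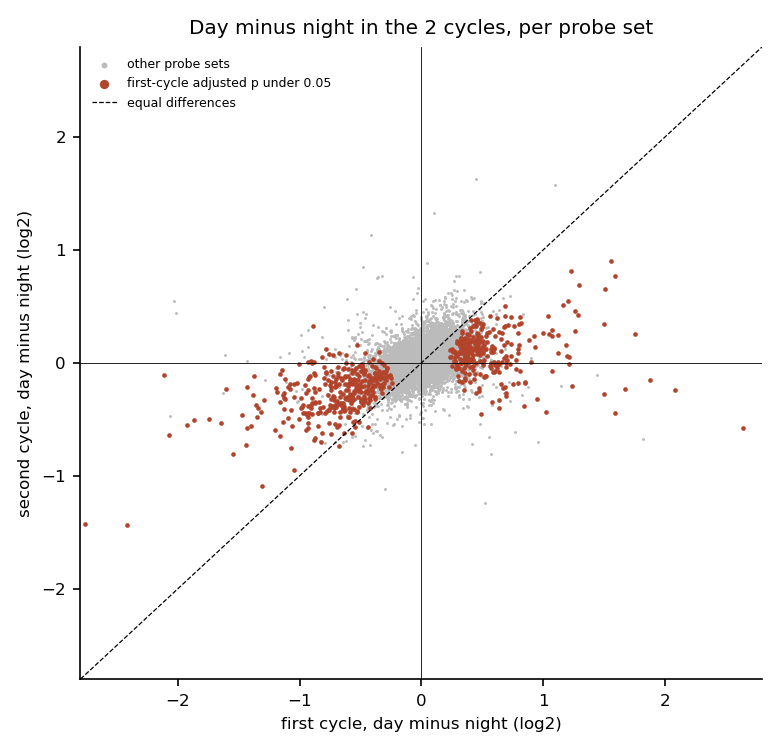
Day minus night on the log2 scale in the first cycle (horizontal) and the second cycle (vertical), 1 point per probe set, with the 645 that passed the first-cycle test in red and a dashed line of equal differences. Most red points keep their side of 0 but lie nearer to 0 on the vertical axis, with medians of -0.24 and 0.12 for the night and the day group.

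The thylakoid list and the Rubisco activase and FBP list had medians on the night side in both cycles, although single members did not. In the first cycle 8 of the 15 probe sets for the thylakoid and chlorophyll synthesis passed the test, all higher in the night, and all 5 of Rubisco activase and FBP did, against 3.05% of all probe sets. Both NDHK probe sets were higher in the first day, at 0.82 and 0.39 (limma adjusted p = 0.498 and 0.371). The median of the thylakoid list was -0.44 in the first cycle and -0.28 in the second. That of the Rubisco activase and FBP list was -0.60 and -0.40. For ELIP the differences were -0.68 and -0.73, for ATPC -0.67 and -0.55, for RCA14 -0.55 and -0.40, and for FBP -0.72 and -0.40. The difference between the cycles had an unadjusted p of 0.841, 0.58, 0.349 and 0.0747 in the limma fit. In the thylakoid list 2 of 15 probe sets had an unadjusted p under 0.05 there, both with a smaller contrast in the second cycle. Of all probe sets 2.87% had such a p with a positive value of second minus first cycle. The 2 were CPX, at -0.71 and -0.21 (limma adjusted p = 0.472), and LHCP, at -1.13 and -0.52 (limma adjusted p = 0.855), and were picked with their values in view. The count became 6 without the boundary times, where 1190 of all 11481 had such a p, and 1 to 5 without single arrays. For LOX7 the probe set of higher mean gave -2.76 and -1.42, with a difference between cycles of 1.34 ± 0.72 (limma adjusted p = 0.946). CHS8 gave 1.59 and 0.77, a difference of -0.82 ± 0.38 with an unadjusted p of 0.0437 and an adjusted p of 0.851 in the limma fit.

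Among the 26 gene lists, that of seed maturation and desiccation had the most members at an unadjusted p under 0.05 in the test between the cycles, while 0 passed after adjustment. These encode proteins such as the late embryogenesis abundant proteins, which accumulate as the embryo prepares to dry. In the first cycle 15 of 35 probe sets passed the test, all higher in the day, against 2.57% of all probe sets, with a list median of 0.48. In the second cycle 29 of 35 had the higher mean in the night, against 41% of all, with a list median of -0.15 and 3 at an unadjusted p under 0.05, against 2.87%. The test of the difference between cycles gave 24 of 35 with a smaller value in the second cycle at an unadjusted p under 0.05, against 2.85% of all probe sets in that direction, and 0 after adjustment. Without any 1 of the 12 arrays the unadjusted count lay between 21 and 27, and it was 17 on the low-class and 14 on the high-class arrays alone. After adjustment 2 of 35 passed without the second replicate of 68 h, where 7 of all probe sets did. Without the first replicate of 72 h 1 of 35 passed, where 5 of all did. The second-cycle median itself was less steady: it was -0.04 without the first replicate of 68 h, -0.26 without the second, and -0.04 against both flanking nights. Without the boundary times it was -0.43, with 15 of 35 higher in the night at an unadjusted p under 0.05, and that count was 11 without the second replicate of 68 h. It was 6 without the first replicate of 52 h or of 72 h, and 1 without the second replicate of 52 h or of 72 h or the first of 68 h. The list's level ran from -0.70 to 0.20 on the day arrays and from -0.21 to 0.58 on the night arrays. The second replicate of 52 h was the lowest and the first replicate of 68 h the highest, so the arms overlapped widely.

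PM9, a seed maturation protein, had a day median of 13.65 (13.06 to 13.94) and a night median of 13.98 (13.69 to 14.29) in the second cycle. Its difference was -0.42 ± 0.11 (limma adjusted p = 0.261), and in the first cycle it had been 0.18. ERD15, a protein of early dehydration response, differed by -0.35 ± 0.13 in the second cycle and by 0.58 in the first. The difference between the cycles was -0.93 ± 0.18, with an unadjusted p of 7.91e-05 and an adjusted p of 0.131 in the limma fit. Its limma adjusted p was 0.043 without the second replicate of 68 h and 0.0487 without the first of 72 h. PM16 and SLE2 gave -0.98 ± 0.22 and -1.44 ± 0.34 in that test (limma adjusted p = 0.22 and 0.24), and PM29 gave -0.77 ± 0.22. GOLS, which had passed in the first cycle with 1.12, differed between the cycles by -1.04 ± 0.33 (limma adjusted p = 0.515).

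GASA4, another gibberellin-regulated peptide gene, had the smallest p in the test between the cycles. It was lower in the first day than in the first night (day minus night -2.12, limma adjusted p = 2.82e-04). In the second it ranged from 12.61 to 13.22 in the day and from 12.60 to 13.41 in the night, with a difference of -0.10 ± 0.25. The cycles differed by 2.01 ± 0.36, with a limma adjusted p of 0.131, of 6.28e-04 with the class of lowest signal as a block and of 0.0351 with the replicate number as a block. All 12 arrays of the second cycle lay above the 6 arrays of the first day, which ran from 9.84 to 11.51. GASA29, and GASA9, which was chosen after its values were seen, passed in the first cycle at -1.19 and -1.16 and differed by -0.26 and -0.10 in the second.

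**Figure D4:**
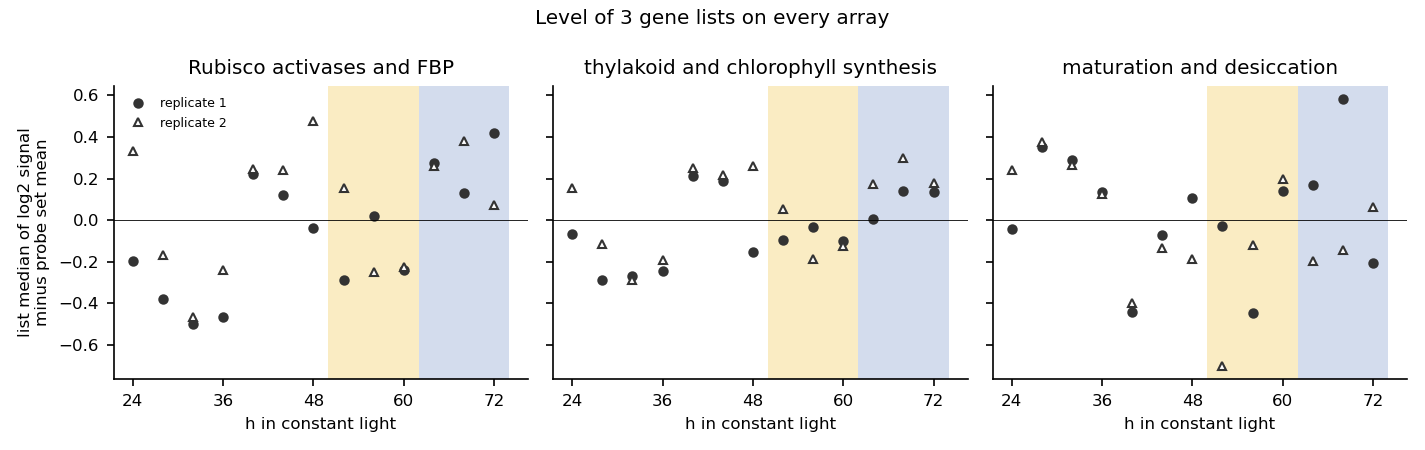
Median over a list's probe sets of the log2 signal minus the probe set's mean over 26 arrays, on every array, against hours in constant light. The Rubisco activase and FBP list and the thylakoid list have lower medians over the day arrays than over the night arrays in both cycles. In the second cycle these are -0.23 and -0.10 in the day and 0.27 and 0.16 in the night. Single arrays of both lists overlap between those arms, and in the thylakoid list the first replicate of 48 h lies within the range of the first day. The maturation list is high in the first day and overlaps between the arms of the second cycle.

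**Figure D5:**
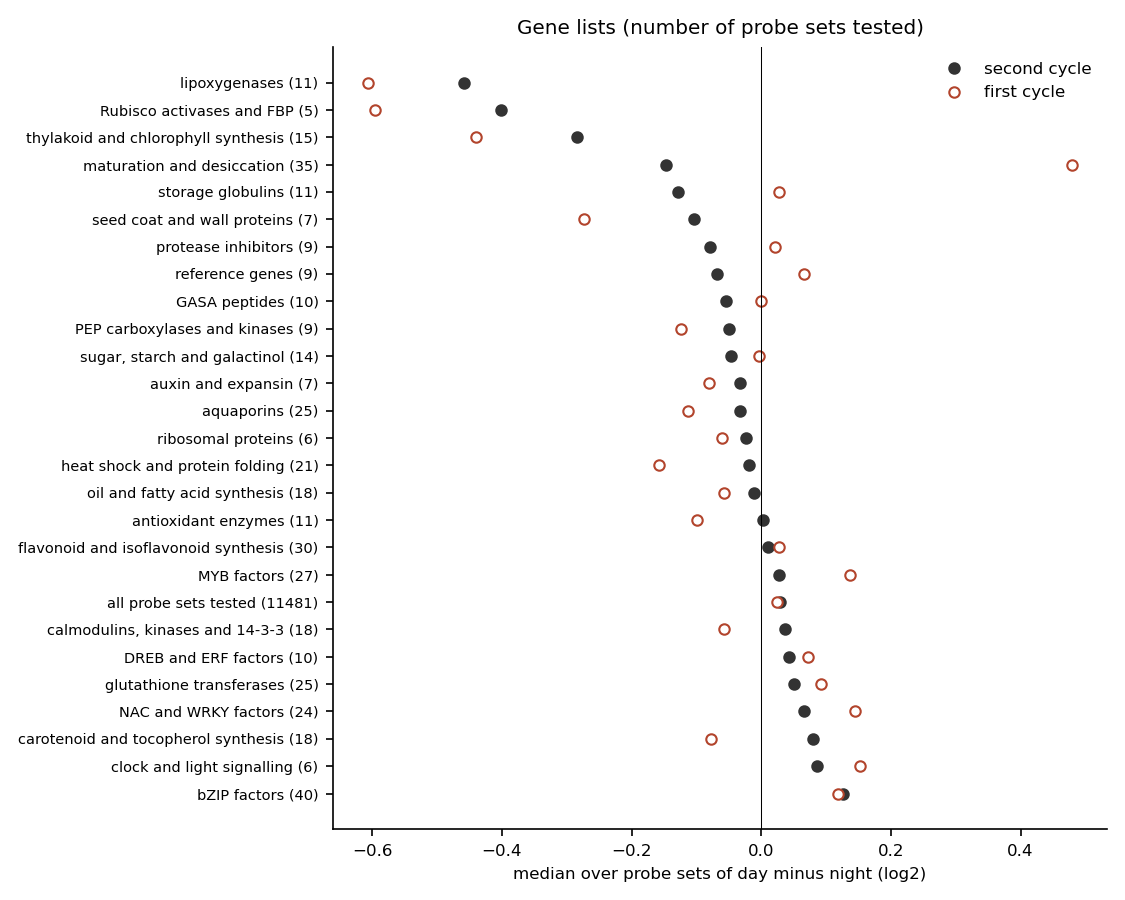
Median difference of day minus night on the log2 scale for each gene list in the second cycle (filled) and the first (open), with the number of probe sets tested in brackets. Lipoxygenases, Rubisco activases with FBP, and the thylakoid list lie below 0 in both cycles, and the maturation list changes side from 0.48 to -0.15.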

How the data were processed

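The authors deposited a log2 signal for each probe set of a one-colour array. The submitters' processing notes name GCRMA, a background correction with quantile normalization. Its version was not given in the sources used here. GCRMA sets low signals to a floor, which compresses changes of weak genes. The number of arrays limits the precision. The table held 16383 probe sets, and every count applies to it.

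Each probe set with a mean log2 above 4 was fitted with 1 mean per time over the 26 arrays, with limma 3.58.1 in R 4.3.3 (lmFit, contrasts.fit, eBayes, 13 residual degrees of freedom) and Benjamini-Hochberg adjustment at 0.05. The fit was tested on simulated data. The contrasts were day minus night in each cycle, their difference, and an F over 6 times. Errors are standard errors.

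By the annotation used here, 5002 probe sets had 1 symbol, 217 had several and 11164 had none. A RefSeq table of Glycine_max_v4.0 held 4989 of the 5002. A locus number took its first synonym as name. Gene roles are background. Named genes, 1 probe set each, were the 12 of smallest p in each direction, LHY, LOX7, CHS8, RCA14, FBP and GOLS, the 4 of smallest p in each of the other tests, up to 3 members of each of the 26 lists, given where their unadjusted p was under 0.05, and 2 unnamed probe sets in each direction. The comparison, members and lists were chosen with earlier results of these data known. Lists were described by counts and medians, without a test.

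Same-numbered replicates of different times correlated in their deviations at r of -0.384 to 0.606, with 34 of 78 pairs over 0.1 and 39 below 0. Replicate 1 was the array of the low class at every time but 64 and 72 h, where it was of the high class. These correlations therefore cannot show whether the numbers pair samples, and the main fit did not pair them. Alternatives changed the filter, scaling, blocks, arrays and times. Promoter motifs were not examined, as no promoter sequence was used here.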

Additional observations from a re-analysis of the deposited data

Results flagged for a closer look

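Among the 59 probe sets given with values, each arm of 6 arrays was searched for an array that stood apart from the others by Dixon's test at 95%. Of 118 arms searched, 3 held one, and chance flags about 1 in 20 groups. The first replicate of 60 h read 6.206 for HSF-03, below the other 5 day arrays at 6.631 to 6.871. The second replicate of 60 h read 10.51 for the leading unnamed probe set of the day side, above the others at 10.124 to 10.248. The second replicate of 56 h read 11.674 for LOC547605 on its x_at probe set, below the others at 11.836 to 11.915.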

How the results depend on the processing

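The count of second-cycle calls, 0 in the main analysis, was 4 with a minimum mean of 6, 28 after quantile normalization, 21 after median centring, 4 with the array floor block, 1 and 3 within the low-class and high-class arrays, 6 with an intensity trend and robust variances, 6 against flanking nights, and 0 without a filter, without the boundary times and in both fits of the 12 arrays alone. Without single arrays it was 0 to 7. The replicate block gave 1 call (an unnamed probe set higher in the day, adjusted p = 0.0425 in limma), which was also the 1 call among 6 times (adjusted p = 0.0486), and GASA4 as the 1 call between the cycles. The latter test gave 1 call with the array floor block (GASA4), 1 within the low-class arrays (an unnamed probe set, also their 1 second-cycle call) and 0 to 7 without single arrays. Within the high-class arrays the 3 calls were LOC100814665, higher in the night, and 2 unnamed probe sets higher in the day. The F test kept 0 calls without any single array. The first cycle gave 401 calls without a filter, 1 and 294 within the low-class and high-class arrays, and 320 to 752 without single arrays. The share of first-cycle calls with the same direction was 89.03% without a filter, 88.78% within the high-class arrays, 71.32% without boundary times and 75.64 to 91.19% without single arrays. Without boundary times the median of all differences between cycles shifted to 0.12. Of 59 probe sets, 5 changed sign somewhere: BCH3 within the low class (0.033), LHY within the high class (-0.102) and without single arrays (-0.05 to 0.225, with -0.008 and -0.002 among them), GOLS within the low class (-0.145), without boundary times (-0.573) and without single arrays (-0.156 to 0.33, with -0.039 and -0.015 among them), GASA4 within the low class (0.047) and without single arrays (-0.236 to 0.028), and SLE2 within the high class (0.157), against flanking nights (0.109) and without single arrays (-0.407 to 0.005). The cause was not tested. The within-class fits rest on 1 array per time. The search of promoters for motifs was not run.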
